A study of Homo sapiens with 48 samples.

Results

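The D cyclins and G1 kinases described here are 8 genes that control entry into S phase: the D cyclins CCND1, CCND2 and CCND3, their kinases CDK4 and CDK6, the E cyclins CCNE1 and CCNE2, and the kinase inhibitor CDKN1B. They were found by matching the Ensembl identifiers of the deposited count tables to gene symbols. All 8 were measured at 3, 6 and 12 h, among 14685 genes. The genes were chosen by name, and no measured value enters the rule. The family itself was proposed with earlier results of these data in view, and which values those were is not recorded, so the p-values below describe these libraries and give no independent support for the choice.

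D cyclins bind and activate CDK4 and CDK6 in G1, and the active kinases phosphorylate the retinoblastoma protein RB1, which then lets go of E2F transcription factors. E2F factors drive the genes of DNA synthesis, CCNE1 and CCNE2 among them, and E cyclins activate CDK2 at the start of S phase. CDKN1B, also called p27, inhibits CDK2 bound to E or A cyclins and also binds D cyclin complexes. Most D cyclin proteins are short-lived, so mRNA levels are only 1 of the layers at which this switch is set. HEK293T cells carry adenovirus early region proteins and the SV40 large T antigen, which binds RB1, so the step that D cyclins control in other cells is partly bypassed in this line.

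The cells were HEK293T, a human embryonic kidney line, and all of them, the controls included, had been transfected with a plasmid for NCBP1 (the larger protein of the complex that holds the mRNA cap in the nucleus) fused to Halo. In the T-REX arm (labelled reaction), a photocaged precursor of the lipid-derived electrophile HNE was bound to Halo and HNE was released by light next to NCBP1. The 3 control arms were light alone (labelled UV), probe alone (labelled Pre) and DMSO. The methods text lists the probe as well as light for light alone, so whether that arm saw the probe cannot be told from it. RNA was taken at 3, 6 and 12 h from 4 replicates per arm, which gave 48 libraries. The study describes its replicates as independent biological ones, and the labels do not say whether they were separate cultures, so the p-values measure the spread between these libraries.

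Total counts ran from 23952455 to 37099535 per library. CPM here means counts scaled to the library total, with TMM scaling over all 48 libraries. The line markers VIM (437 to 668 CPM), NEFM (22.2 to 46.4 CPM), NEFL (33.4 to 98.5 CPM), KRT8 (4.39 to 10.4 CPM) and KRT18 (7.14 to 13.4 CPM) were present. Of 5 markers of other cell types, COL1A1 stood at 2.13 to 6.07 CPM, and PTPRC, PECAM1, ALB and KRT5 are not listed in the table used here. At each time point the library farthest from the mean of its group was marked, so the rule itself fixed 1 library per time point. These were T-REX replicate 1 at 3 h, light alone replicate 3 at 6 h and DMSO replicate 3 at 12 h. Their root mean square deviations were 0.229, 0.216 and 0.213 on the log2 scale. At 3 h, T-REX replicate 3 was nearly as far, at 0.225. The 3 marked libraries are those said below to stand apart. NCBP1 transcripts, which include those of the plasmid, differed between arms. At 12 h they lay at 51940 to 63930 CPM under T-REX and 52800 to 74040 CPM with probe alone. Light alone had 34590 to 49370 CPM and DMSO 30800 to 40600 CPM. The part of these differences in the results below was not tested.

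CCND2 was the main D cyclin mRNA of these cells. Divided by the length of each gene's exons, which compares levels between genes, CCND2 stood at a median of 38.3 CPM per kb over 48 libraries, CCND3 at 2.35 and CCND1 at 1.92. CCND2 made up between 85.2% and 91.7% of the D cyclin level per kb in every library. Both kinases were well expressed, with medians of 27.4 CPM per kb for CDK4 and 20.1 for CDK6. CDKN1B followed at 11.02, CCNE2 at 9.96 and CCNE1 at 7.12 CPM per kb. Neighbours in this order could change places in single libraries: CDKN1B was above CCNE2 in 34 of 48, CCND3 above CCND1 in 40 of 48, CDK4 above CDK6 in 46 of 48 and CCND2 above CDK4 in 47 of 48 libraries. CDK6 was above CDKN1B, CCNE2 above CCNE1, and CCNE1 above CCND3 in all 48. The lowest count of any of the 8 genes in a library was 172, for CCND1, where counting alone gives a coefficient of variation of 7.63%.

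**Figure D1:**
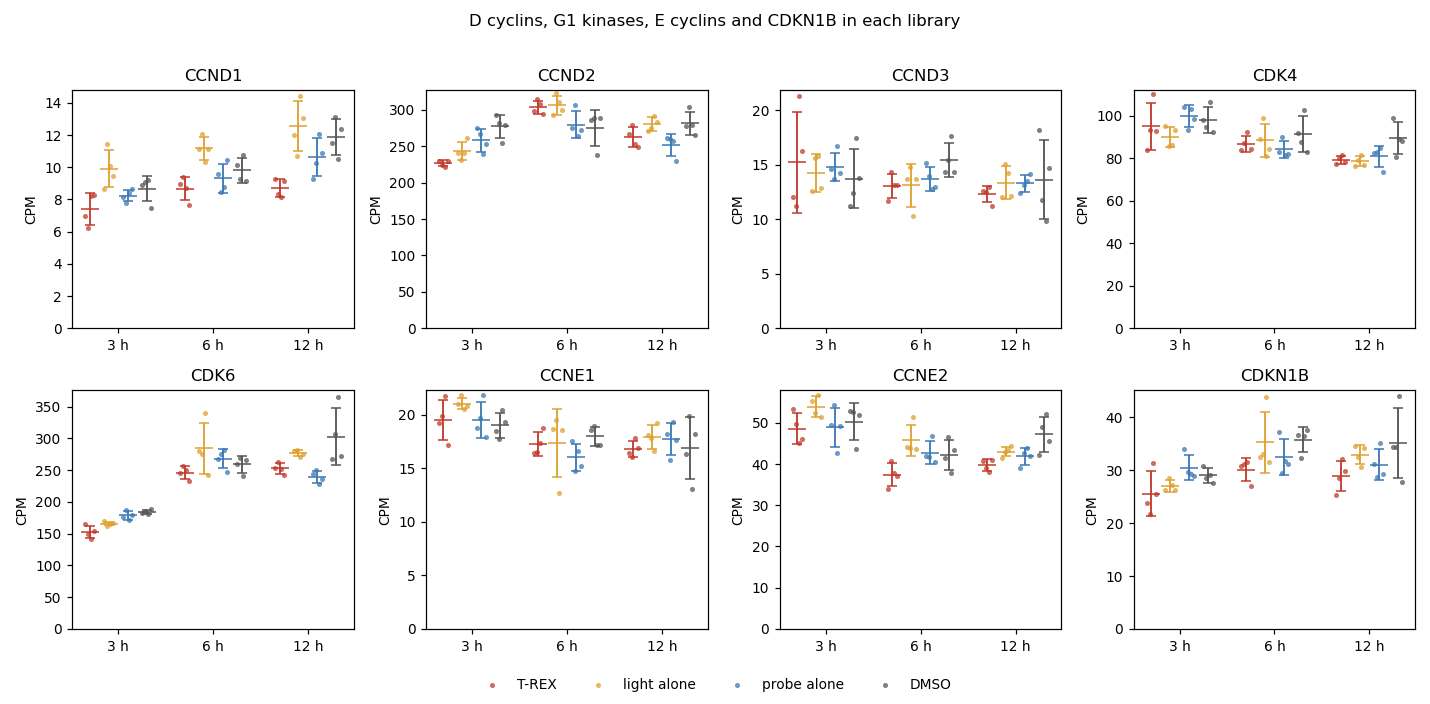
Level of each gene in CPM (y axis, from 0) in the 48 libraries, by time point (x axis) and arm (colour). Points are libraries, horizontal marks are means of 4 libraries and bars are SDs. CDK6 lies between 142 and 189 CPM at 3 h and between 228 and 364 CPM at 6 and 12 h.

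The first question was whether HNE release next to NCBP1 changed these mRNAs against each control. At 3 h, 3 of 24 tests were called (adjusted p of at most 0.05 over all genes), and each was lower under T-REX. None of the 8 genes was called against light alone, where 0.197% of all genes were called; 2 of the 8 had an unadjusted p of at most 0.05, as did 14.8% of all genes, and DESeq2 called 0 of 7, with no adjusted p for CCND1. Against probe alone, 1 of 8 was called (CDK6), beside 1.05% of all genes, 0.81% lower under T-REX. Against DMSO, 2 of 8 were called (CCND2 and CDK6), beside 5.99% of all genes, 4.54% lower under T-REX. At 6 h, 0 of 24 tests were called by edgeR, beside 0.218%, 0.109% and 0.415% of all genes against light alone, probe alone and DMSO, and 4, 1 and 4 of the 8 genes had an unadjusted p of at most 0.05 (11.7%, 6.56% and 12.4% of all genes). DESeq2 called 1 at 6 h, CCNE2 against light alone. At 12 h, 4 of 24 tests were called, all lower under T-REX. These were CCND1 against light alone, where 1.29% of all genes were called and 0.79% were lower, and CCND1, CDK6 and CCNE2 against DMSO, where 10.9% were called and 6.79% were lower. Against probe alone at 12 h, 0 of 8 were called, beside 0.701% of all genes, with 1 at an unadjusted p of at most 0.05 (11.1% of all genes), and DESeq2 also called 0 there. The comparisons of a time point share the T-REX libraries, so their counts do not add up as separate evidence. At 3 h every T-REX library was below light alone for 4.56% of all genes, below probe alone for 6.48% and below DMSO for 7%. In the same order it was 2.83%, 3.3% and 3.47% at 6 h and 7.14%, 4.49% and 7.52% at 12 h. Of the 8 genes it held for 2, 2 and 2 at 3 h. It held for 3, 0 and 1 at 6 h and for 3, 1 and 3 at 12 h. At 6 h every T-REX library was above DMSO for 4.4% of all genes and for 1 of the 8. These counts were not tested. In cultures measured as a whole, fewer cells expressing a gene and less RNA per cell cannot be told apart.

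**Figure D2:**
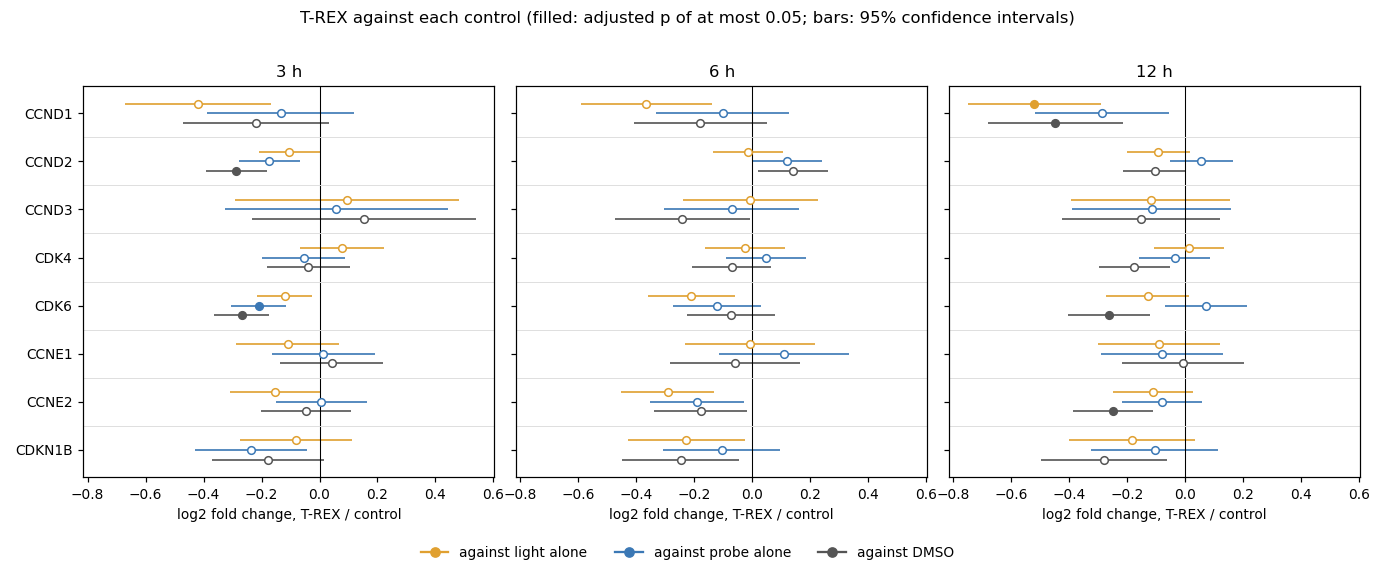
Log2 fold change of T-REX over each control (x axis) for the 8 genes (y axis) at 3, 6 and 12 h, with 95% confidence intervals from edgeR. Filled points have an adjusted p of at most 0.05 over all genes, and the 7 filled points all lie below 0.

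CCND1 encodes cyclin D1, the D cyclin best known for its response to growth factors. At 12 h it was measured under T-REX at 9.26, 8.33, 8.16 and 9.13 CPM. Light alone gave 12.0, 10.7, 14.4 and 13.03 CPM, probe alone gave 9.26, 10.3, 12.1 and 10.9 CPM, and DMSO gave 11.53, 13.1, 10.5 and 12.4 CPM. Every T-REX library lay below every control library, although the highest T-REX library and the lowest probe alone library were level to 3 digits. CCND1 was lower than with light alone by a log2 fold change of -0.52 (standard error 0.11, adjusted p = 0.0124) and lower than with DMSO by -0.45 (standard error 0.11, adjusted p = 0.0122). Against probe alone the log2 fold change was -0.29 (adjusted p = 0.32), and it was not called. Against light alone the call did not hold without T-REX replicate 2 (adjusted p = 0.0535), T-REX replicate 3 (0.0516) or light alone replicate 3 (0.093), and against DMSO it failed only when the fit held no other arm (0.0514).

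At the earlier times CCND1 was also at its lowest mean under T-REX. At 3 h it stood at 6.99, 6.24, 8.21 and 8.26 CPM under T-REX against 8.68, 11.4, 10.1 and 9.46 CPM with light alone, and the arms did not overlap. That difference, -0.42 on the log2 scale (95% confidence interval -0.67 to -0.17), was not called (adjusted p = 0.12). At 6 h the same comparison gave 8.97, 9.37, 8.71 and 7.66 CPM under T-REX against 11.1, 12.1, 10.3 and 11.2 CPM with light alone, again without overlap and without a call (log2 fold change -0.37, adjusted p = 0.183). With the authors' factors of unwanted variation as covariates, edgeR called CCND1 lower than with light alone at both times. The values were -0.42 (adjusted p = 0.00633) at 3 h and -0.36 (adjusted p = 0.0277) at 6 h, and the other settings called neither. Against probe alone and DMSO, the T-REX libraries overlapped the controls at 3 and 6 h.

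CCND2, cyclin D2, had the highest mRNA level per kb of the D cyclins. At 3 h its values under T-REX lay close together, at 230, 224, 222 and 230 CPM. DMSO gave 293, 282, 255 and 280 CPM, probe alone 275, 267, 239 and 253 CPM, and light alone 240, 232, 241 and 262 CPM. The T-REX libraries were below all 12 control libraries. Against DMSO, CCND2 was lower by a log2 fold change of -0.29 (0.82-fold, standard error 0.051, adjusted p = 0.00274), and this call held in all 16 fits that left out 1 library and in all 8 other settings tried. Against probe alone (log2 fold change -0.17, adjusted p = 0.0834) and light alone (-0.10, adjusted p = 0.344) it was not called by edgeR. DESeq2 called it against probe alone (-0.18, adjusted p = 0.031). So did edgeR with the authors' factors of unwanted variation as covariates (-0.17, adjusted p = 0.003), and the other settings did not.

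At 6 h the order of the arms was different for CCND2. T-REX gave 298, 314, 308 and 295 CPM, and DMSO gave 286, 289, 238 and 289 CPM, so that every T-REX library lay above every DMSO library. That difference was 0.14 on the log2 scale and was not called (adjusted p = 0.318). Light alone gave 293, 323, 310 and 300 CPM, also above every DMSO library, as for 2.42% of all genes. It differed from DMSO by 0.16 (adjusted p = 0.234), and T-REX differed from light alone by -0.015 (adjusted p = 0.943). The change of the T-REX effect against DMSO from 3 to 6 h was itself called for CCND2, at 0.43 on the log2 scale (95% confidence interval 0.27 to 0.59, adjusted p = 0.0219). It was 1 of 48 such tests on the 8 genes that was called, and 0.0136% of all genes were called in that comparison. The other 5 comparisons of this kind called 0 of 8. Against light alone they called 0% and 0.0204% of all genes at 6 and 12 h, against probe alone 0% and 0.0681%, and against DMSO at 12 h 0.00681%. In that order, 0, 0, 1, 2 and 1 of the 8 genes had an unadjusted p of at most 0.05, beside 4.57%, 7.37%, 8.2%, 13.4% and 9.7% of all genes. DESeq2 called 0 in these 5 among the genes it gave an adjusted p, which left out CCND1 against probe alone at 12 h and CCND1, CCND3 and CCNE1 against DMSO at 12 h. The CCND2 call did not hold when the fit was restricted to the 4 groups involved (adjusted p = 0.144), nor without T-REX replicate 3 or DMSO replicate 1 or 4 at 3 h, or T-REX replicate 2 or 3 or DMSO replicate 3 at 6 h (adjusted p from 0.0688 to 0.155). At 12 h CCND2 ran from 249 to 279 CPM under T-REX and from 229 to 304 CPM in the controls.

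CCND3, cyclin D3, was low and was not called in any comparison of arms. Under T-REX it ran from 11.2 to 21.3 CPM at 3 h, 11.7 to 14.3 CPM at 6 h and 11.2 to 12.9 CPM at 12 h. The controls ran from 11.2 to 17.5, 10.3 to 17.6 and 9.83 to 18.2 CPM. Its 95% confidence intervals against DMSO reached from -0.23 to 0.54 at 3 h, -0.47 to -0.01 at 6 h and -0.43 to 0.12 at 12 h on the log2 scale.

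CDK4, a kinase partner of the D cyclins, was not called between arms at any time by edgeR without covariates. Under T-REX it stood at 84.1, 93.1, 111 and 92.9 CPM at 3 h and at 77.1, 80.1, 81.5 and 78.2 CPM at 12 h. DMSO gave 98.0, 94.7, 107 and 92.6 CPM at 3 h and 99.2, 80.8, 89.2 and 88.3 CPM at 12 h. The lowest adjusted p for CDK4 was that of T-REX against DMSO at 12 h (log2 fold change -0.18, standard error 0.059, adjusted p = 0.0566), and DESeq2 called it (-0.18, adjusted p = 0.0377). Light alone and probe alone were also below DMSO at 12 h (-0.19 and -0.14) and not called (adjusted p = 0.363 and 0.159). T-REX against light alone was 0.01 (adjusted p = 0.956) and against probe alone -0.04 (adjusted p = 0.881). With the factors of unwanted variation as covariates, edgeR called T-REX, light alone and probe alone lower than DMSO at 12 h (highest adjusted p = 0.0198). It also called light alone lower than probe alone at 3 h (-0.13, adjusted p = 0.0324).

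CDK4 is also a textbook target of MYC, which binds E-boxes. RefSeq promoter windows (250 bases before to 50 after each start) on GRCh38.p14 matched 5 of the 8 genes, with 8 windows, and CCND1, CCND2 and CCNE2 were not among them. CDK4 was the gene with the most matches to the E-box CACGTG, a palindrome, searched on both strands. They are shown because 3 lie upstream of 1 start, with the match in capitals and the gene's minus strand read 5′ to 3′:
CDK4 at chr12:57752512-57752535: tcaagcggtCACGTGtgatagcaa
CDK4 at chr12:57752492-57752515: gcaacagatCACGTGgctgccatc
CDK4 at chr12:57752397-57752420: ggtggcggtCACGTGcccagaacg
Counted from the start, the first bases of these matches lie at -216, -196 and -101. CDK6 had 1 match, after its start, and 7.26% of 35116 windows held at least 1. The E2F words TTTGGCGC, TTTGCCGC, TTTCGCGC and TTTCCCGC were in 3.31% of all windows and in 0 of the 8 windows here. A match is a description of these letters.

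CDK6, the other D cyclin kinase, was the gene called most often. At 3 h it stood at 165, 150, 142 and 155 CPM under T-REX. It stood at 183, 186, 181 and 189 CPM with DMSO and at 176, 188, 172 and 179 CPM with probe alone, so that T-REX did not overlap either arm. Light alone gave 169, 162, 166 and 167 CPM and overlapped T-REX through 1 library. CDK6 was called lower for T-REX in both comparisons, with a log2 fold change of -0.27 against DMSO (standard error 0.045, adjusted p = 0.00196) and -0.21 against probe alone (standard error 0.045, adjusted p = 0.0349). The call against DMSO held in all 16 fits that left out 1 library and all 8 other settings. That for probe alone failed when the fit held these 2 arms alone (adjusted p = 0.216) and in 7 of 16 fits with 1 library fewer: without T-REX replicate 2 or 4, probe alone replicate 1, 2 or 3, or DMSO replicate 1 or 2 (log2 fold change from -0.19 to -0.23, adjusted p from 0.0501 to 0.127).

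At 12 h CDK6 stood at 254, 263, 251 and 242 CPM under T-REX, 280, 282, 270 and 276 CPM with light alone, 245, 250, 228 and 236 CPM with probe alone, and 268, 307, 364 and 272 CPM with DMSO. T-REX and probe alone overlapped, and both lay below every DMSO library, as for 7.52% and 5.97% of all genes. T-REX also lay below every light alone library, as for 7.14% of all genes, and was not called there (log2 fold change -0.13, adjusted p = 0.444). A fit of only these 2 arms called it (-0.13, adjusted p = 0.0137). So did edgeR with the factors of unwanted variation as covariates (-0.13, adjusted p = 0.00546), and the other settings did not. Against DMSO, CDK6 was called lower for T-REX (log2 fold change -0.26, standard error 0.069, adjusted p = 0.0167) and for probe alone (-0.33, standard error 0.069, adjusted p = 0.00842). The DMSO library at 364 CPM is replicate 3, which stood apart: without it the T-REX value was -0.15 (adjusted p = 0.0266). The T-REX call was lost without T-REX replicate 4 (adjusted p = 0.0547), and both calls were lost in fits of only the 2 arms compared (adjusted p = 0.107 and 0.119).

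That probe alone call was the only one among the tests of the 8 genes between controls, 24 at each time point. At 12 h, 5.11% of all genes were called between probe alone and DMSO, 3.37% lower with probe alone. Between light alone and DMSO, 0 of 8 were called at 3, 6 and 12 h, beside 0.00681%, 0.00681% and 0.0136% of all genes, and 2, 2 and 2 of them passed without adjustment (7.78%, 14.4% and 10.4% of all genes). Probe alone against DMSO called 0 at 3 and 6 h, beside 0.00681% and 0.0272%, and 1 and 0 passed without adjustment (5.11% and 8.21% of all genes). Light alone against probe alone called 0 at each time, beside 0.232%, 0.0613% and 0.415%, and 2, 2 and 3 passed without adjustment (14%, 8.42% and 12.6% of all genes). DESeq2 also called 0 in these 8 comparisons, with no adjusted p for CCND1 in the 3 h comparison of light alone with probe alone. When the fit held no other arm, light alone was higher than probe alone at 12 h for CDK6 (0.20 on the log2 scale, adjusted p = 0.0017) and CCND2 (0.15, adjusted p = 0.029).

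CCNE2, an E cyclin that activates CDK2, was called lower at 12 h for T-REX against DMSO. T-REX gave 40.8, 39.1, 38.02 and 40.9 CPM and DMSO 42.2, 48.9, 52.1 and 45.5 CPM, without overlap (log2 fold change -0.25, standard error 0.067, adjusted p = 0.0179). The call was lost without T-REX replicate 3 (adjusted p = 0.0567), without DMSO replicate 3 (log2 fold change -0.19, adjusted p = 0.0543), without the 3 libraries that stood apart, and when the fit held no other arm (adjusted p = 0.0961). At 12 h light alone and probe alone were also below DMSO in mean (-0.14 and -0.17) and not called (adjusted p = 0.479 and 0.124). T-REX against light alone and probe alone gave -0.11 and -0.08 (adjusted p = 0.516 and 0.741). At 6 h CCNE2 stood at 33.9, 40.7, 37.9 and 37.2 CPM under T-REX and at 44.1, 43.9, 51.3 and 43.6 CPM with light alone, where the arms did not overlap (-0.29, adjusted p = 0.122).

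CCNE1, its close relative, was not called between arms. It ran from 17.2 to 21.8 CPM under T-REX at 3 h, from 16.4 to 18.8 CPM at 6 h and from 16.04 to 17.8 CPM at 12 h, inside the range of the controls at 6 and 12 h (12.7 to 19.5 CPM and 13.1 to 19.9 CPM). Its log2 fold change against DMSO at 12 h was -0.01 (95% confidence interval -0.22 to 0.20).

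CDKN1B, the inhibitor, was not called between arms by edgeR without covariates. With the factors of unwanted variation as covariates, edgeR called it lower under T-REX than with probe alone at 3 h (-0.24, adjusted p = 0.00997). That fit also called it lower than with DMSO at 3, 6 and 12 h (-0.18, -0.25 and -0.26, adjusted p = 0.0491, 0.0253 and 0.0026). The other settings did not. At 12 h it stood at 25.4, 28.6, 32.1 and 29.8 CPM under T-REX and at 34.4, 34.5, 43.96 and 27.7 CPM with DMSO, and these ranges overlapped (log2 fold change -0.28, standard error 0.11, adjusted p = 0.0879). At 6 h T-REX (30.9, 31.1, 31.6 and 27 CPM) lay below DMSO (36.6, 32.3, 36.5 and 37.7 CPM) without overlap, and the difference of -0.25 was not called (adjusted p = 0.282).

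Over the 8 genes the median log2 fold change of T-REX was below that over all genes tested in each of the 9 comparisons. It ran from -0.13 to -0.08 for 8 of them and was -0.21 against DMSO at 12 h, while the median of all genes lay between -0.0019 and 0.031. All 8 genes had a negative value against DMSO at 12 h, of which 3 were called. Probe alone against DMSO at 12 h, which shares the DMSO libraries, gave a median of -0.16, with 7 of 8 negative. Between controls at 6 h the medians reached a like size, at -0.098 for probe alone against DMSO and 0.11 for light alone against probe alone.

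The second question was how these genes changed with time in each arm. Each time point was deposited as a table of its own, and time after treatment and any difference in handling between time points cannot be told apart. At 6 h against 3 h, 12 of 32 tests were called, and at 12 h against 3 h, 16 of 32. In the T-REX arm 3 of 8 genes were called at 6 h and 4 at 12 h, beside 19.6% and 38.8% of all genes. With light alone 4 and 6 of 8 were called, beside 21% and 36.6%. With probe alone 4 and 4 were called, beside 27.6% and 47.9%. With DMSO 1 and 2 were called, beside 9.98% and 33.1%. With so few genes, none of these counts is read as a result about the 8 as a set. The shares under T-REX at 12 h, with DMSO at both times and with probe alone at 12 h were near those of all genes.

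**Figure D3:**
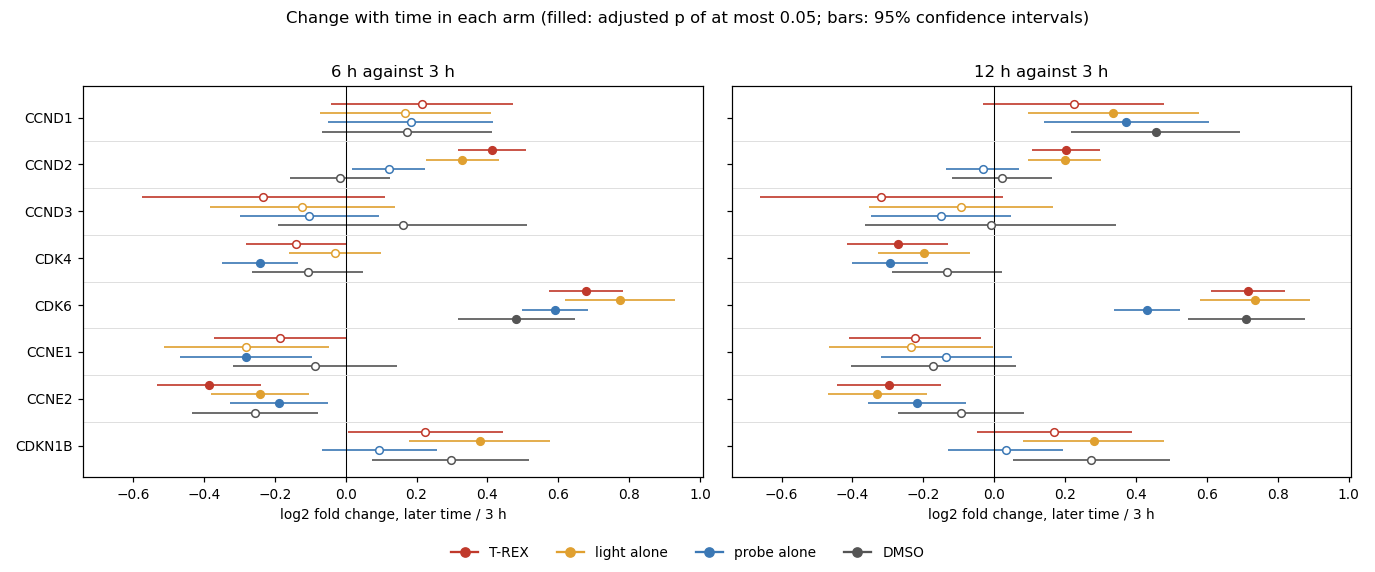
Log2 fold change of 6 h and of 12 h over 3 h (x axis) for the 8 genes (y axis) in each arm (colour), with 95% confidence intervals from edgeR. Filled points have an adjusted p of at most 0.05 over all genes; all 8 CDK6 points are filled and lie between 0.43 and 0.77.

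CDK6 rose in all 4 arms at both times. Over the 16 libraries of a time point it ran from 142 to 189 CPM at 3 h (median 171), from 234 to 340 CPM at 6 h (median 263) and from 228 to 364 CPM at 12 h (median 266), so no library at 3 h reached any later one. Within single arms, all libraries at 6 h lay above those at 3 h for 10.7% to 12.9% of all genes. At 12 h the shares were 16.6% to 20.8%. From 3 to 6 h the log2 fold change under T-REX was 0.68 (standard error 0.050, adjusted p = 5.42e-07) and that of DMSO 0.48 (standard error 0.079, adjusted p = 0.001). Light alone gave 0.77 (standard error 0.073, adjusted p = 8.21e-06) and probe alone 0.59 (standard error 0.046, adjusted p = 2.7e-11). From 3 to 12 h it was 0.72 for T-REX, 0.71 for DMSO, 0.74 for light alone and 0.43 for probe alone, and the highest adjusted p was 3.76e-06. These calls held under every setting and every library left out.

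CCND2 rose under T-REX and with light alone. From 3 to 6 h the T-REX libraries went from a mean of 227 ± 4.42 CPM (SD, n = 4) to 304 ± 8.85 CPM (log2 fold change 0.41, adjusted p = 1.27e-05), and those of light alone from 244 ± 12.8 to 307 ± 12.9 CPM (0.33, adjusted p = 0.000219). At 12 h both were 0.20 above 3 h on the log2 scale (adjusted p = 0.00188 and 0.00416). With probe alone the values were 0.12 and -0.03, and with DMSO -0.02 and 0.02, none of them called. The test of the difference between T-REX and DMSO is the one given above, and those between T-REX and probe alone gave 0.31 at 6 h (adjusted p = 0.485) and 0.25 at 12 h (adjusted p = 0.175).

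CCND1 rose from 3 to 12 h in the 3 control arms. The log2 fold change was 0.46 with DMSO (adjusted p = 0.00474), 0.37 with probe alone (adjusted p = 0.00724) and 0.34 with light alone (adjusted p = 0.0285), and the last was lost without light alone replicate 1, 3 or 4 at 3 h or replicate 3 or 4 at 12 h (adjusted p from 0.0506 to 0.0918). Under T-REX it was 0.22 (95% confidence interval -0.03 to 0.48, adjusted p = 0.154). The T-REX change was not shown to differ from that of the controls: the interaction was -0.22 for DMSO (adjusted p = 0.678), -0.13 for probe alone (adjusted p = 0.728) and -0.11 for light alone (adjusted p = 0.947).

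CCNE2 and CDK4 fell. CCNE2 fell by 0.39 on the log2 scale under T-REX from 3 to 6 h (adjusted p = 0.000891), by 0.24 with light alone (adjusted p = 0.0159) and by 0.19 with probe alone (adjusted p = 0.0375). From 3 to 12 h it fell by 0.30, 0.33 and 0.22 in these arms (highest adjusted p = 0.00886), and with DMSO the values were -0.26 at 6 h (adjusted p = 0.0643) and -0.09 at 12 h (adjusted p = 0.425). CDK4 fell from 3 to 12 h by 0.27 under T-REX (adjusted p = 0.00392), by 0.20 with light alone (adjusted p = 0.0171) and by 0.30 with probe alone (adjusted p = 2.24e-05), and at 6 h by 0.24 with probe alone (adjusted p = 0.000813). With DMSO CDK4 stood at -0.13 at 12 h (adjusted p = 0.181). The CCNE2 call at 6 h ended without probe alone replicate 1, 2 or 4 of either time (adjusted p from 0.0665 to 0.156), and for light alone without replicate 3 at 3 h (0.054) or replicate 1 at 6 h (0.0505), or when the fit held only these 2 groups (0.0558). The probe alone call of CCNE2 at 12 h ended without replicate 2 at 3 h (0.0561), and the light alone call of CDK4 without replicate 1 or 4 at 3 h or replicate 1 or 2 at 12 h (0.0545 to 0.0846).

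CCNE1 fell with probe alone from 3 to 6 h (log2 fold change -0.28, adjusted p = 0.0211), a call lost without replicate 3 at 3 h or replicate 2 or 4 at 6 h (adjusted p from 0.0599 to 0.0954). In the other 7 comparisons of CCNE1 with time, values ran from -0.28 to -0.09 and none was called. CDKN1B rose with light alone by 0.38 at 6 h (adjusted p = 0.00952) and 0.28 at 12 h (adjusted p = 0.0269), and the second call was lost without replicate 3 at 3 h or replicate 1 or 4 at 12 h (adjusted p from 0.0521 to 0.0681). CCND3 was not called with time in any arm.

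The ratio of the 2 D cyclin kinases was higher at the later times. CDK6 over CDK4, each per kb, ran from 0.332 to 0.526 in the 16 libraries at 3 h, from 0.605 to 1.08 at 6 h and from 0.696 to 1.06 at 12 h. The ratio at 3 h was below every later library. By arm its mean at 3 h was 0.421 ± 0.0715 for T-REX, 0.489 ± 0.0372 for DMSO, 0.477 ± 0.018 for light alone and 0.464 ± 0.0407 for probe alone (SD, n = 4). At 12 h it was 0.824 ± 0.0292, 0.882 ± 0.164, 0.911 ± 0.0377 and 0.767 ± 0.0543 in the same order. The 2 libraries above 1 were light alone replicate 3 at 6 h (1.08) and DMSO replicate 3 at 12 h (1.06), both among the 3 that stood apart. CCNE2 over CCNE1 ran from 1.13 to 2.35 over all libraries, and the same 2 libraries gave its highest values, 2.35 and 2.31.

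**Figure D4:**
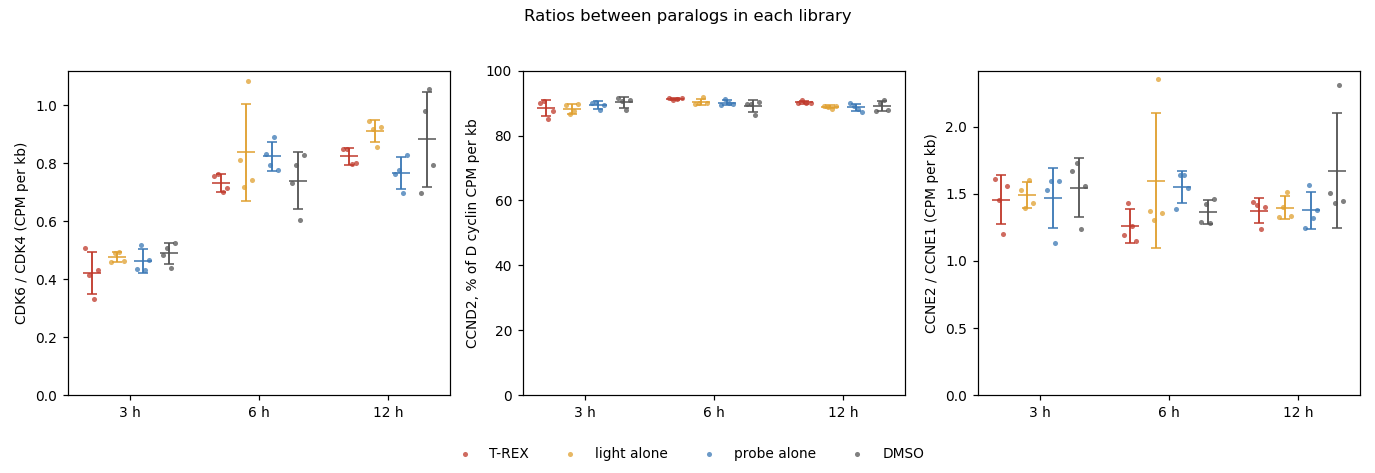
CDK6 over CDK4, the CCND2 share of the summed D cyclin level and CCNE2 over CCNE1, all from CPM per kb (y axes, from 0), by time point (x axis) and arm (colour). Points are libraries, horizontal marks are means of 4 and bars are SDs; CDK6 over CDK4 is between 0.332 and 0.526 at 3 h and between 0.605 and 1.08 later.

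Other genes of the pathway were taken in 6 lists with 55 genes, of which 53 were measured, CDKN2D and MYCN not being listed in the table. Their calls for T-REX stand beside the shares of all genes called, which were 5.99% and 10.9% against DMSO at 3 and 12 h and between 0.197% and 1.29% against light alone and probe alone at these times. With so few genes per list, no count is read as particular to a list. Of 13 RB and E2F family genes, 2 were lower than with DMSO at 3 h: E2F3, an activating E2F (log2 fold change -0.21, adjusted p = 0.00885), and E2F8, a repressing E2F (-0.23, adjusted p = 0.0165). The same genes were the 2 called at 12 h, again lower (-0.30, adjusted p = 0.00101, and -0.31, adjusted p = 0.00262), and E2F8 was also lower than with light alone at 12 h (-0.26, adjusted p = 0.0285). The median of this list was -0.04 at 3 h and -0.06 at 12 h against DMSO, beside 0.03 and 0.00 over all genes. Probe alone against DMSO at 12 h called 3 of the 13, all lower (E2F3, E2F5 and E2F8, named after their values were seen).

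Of 6 other G1/S kinases and activators, CCNA2 (cyclin A2, which drives S phase with CDK2) and CDK2 were lower than with DMSO at 3 h (log2 fold changes -0.25 and -0.19, adjusted p = 0.0138 and 0.0235) and at 12 h (-0.21 and -0.17, adjusted p = 0.0173 and 0.0341). CCNA2 was also lower than with probe alone at 3 h (-0.25, adjusted p = 0.0398). The list's median against DMSO was -0.01 at 3 h and -0.03 at 12 h. Of 8 genes for the turnover of G1 regulators, SKP2, which marks CDKN1B for breakdown, was lower than with DMSO at 3 h (-0.21, adjusted p = 0.0239) and 12 h (-0.25, adjusted p = 0.00431), and was also called lower for probe alone against DMSO at 12 h (-0.23, adjusted p = 0.0187). FBXW7, which marks cyclin E, was higher at 12 h than with light alone (0.32, adjusted p = 0.0174) and DMSO (0.37, adjusted p = 0.00194). The medians of that list against DMSO were 0.07 and 0.01.

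Of the 5 other CDK inhibitors measured, CDKN2C and CDKN2A, which bind CDK4 and CDK6, were lower than with DMSO at 12 h (-0.45 and -0.29, adjusted p = 0.00237 and 0.02), with a list median of -0.24. Of 6 upstream transcription regulators, CTNNB1 and TCF7L2, the effectors of Wnt signalling, were lower than with DMSO at 12 h (-0.24 and -0.18, adjusted p = 0.00155 and 0.0322), with a list median of -0.14. Of 15 S phase genes under E2F control, 0 were called by edgeR in the comparisons of T-REX with controls at 3 and 6 h, where 0 to 4 of them per comparison had an unadjusted p of at most 0.05. At 12 h MCM6, a subunit of the replicative helicase, was lower than with probe alone (-0.24, adjusted p = 0.0325) and DMSO (-0.19, adjusted p = 0.0296), and MCM4 was lower than with DMSO (-0.16, adjusted p = 0.0355). The S phase list had a median of -0.04 against DMSO at 12 h. At 6 h, 0 genes of these 6 lists were called against any control, with 0 to 4 per list and control at an unadjusted p of at most 0.05.

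The genes whose pattern was most like that of each of the 8 were sought among 9578 genes with a mean of at least 10 CPM, by Pearson's r of log2 CPM centred on each time point over the 48 libraries, which share depth and library quality within a sample. CDK6 had the closest neighbours, RPRD1A, QSER1 and MRPL42 (r of 0.92 each). CCND2 was close to IPO5 (0.77) and SLC7A2 (0.77), and CCND1 to SNAI2 (0.71), ADAMTS1 (0.70) and SMAD6 (0.69). CCND3 was closest to KIAA1522 (0.79), TLE3 (0.78) and PTPRF (0.77), and CDK4 to EIF5A (0.81), RPL13A (0.79) and PRMT1 (0.76). CCNE2 was closest to ENAH (0.77), BARD1 (0.76) and CHRAC1 (0.76), CCNE1 to DGCR8 (0.69), ATXN7L3 (0.68) and STX18 (0.65), and CDKN1B to RAB10 (0.78), UBE2T (0.76) and INA (0.75). Among the 8 genes themselves, the highest r was between CDK6 and CCNE2 (0.62) and the lowest between CDK6 and CCNE1 (-0.44). CDK6 and CDK4 gave 0.04, and CCND1 and CCND2 gave 0.19. Deviations of CDK6 from its group means correlated with the authors' first factor of unwanted variation (r of 0.80, -0.87 and 0.95 at 3, 6 and 12 h). For CCNE2 these were 0.61, -0.65 and 0.64, and for CCND2 only 0.41, -0.28 and 0.15. The part of this factor in the correlations above was not tested.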

How the data were processed

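RNA of 48 libraries was sequenced by the authors as paired-end reads from stranded libraries depleted of ribosomal RNA. The authors deposited counts per gene that were not normalized, and log2 CPM of the same libraries, with 1 table per time point. Their Reporting Summary lists cutadapt, TopHat and Cufflinks. The genome build and counter of the counts are not given in the sources used here, so no gene positions are given for them. The positions of the promoter matches are those of the RefSeq windows on GRCh38.p14. A score per library for each of 2 factors of unwanted variation (RUV) was also deposited by the authors. The deposited tables with those factors subtracted were not used.

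Counts were analysed in R 4.3.3 with edgeR 4.0.16 (filterByExpr, TMM, robust estimateDisp and glmQLFit, quasi-likelihood F-test). filterByExpr removed 0 of 14685 genes. Arms were compared in 1 fit of the 16 libraries of a time point, times in 1 fit per arm, and changes of the T-REX effect in 1 fit of all 48 libraries. Adjustment was that of Benjamini and Hochberg, over all genes and separately for each of 32 comparisons. Exon lengths are unions from GENCODE 29, and longer or shorter isoforms would move levels per kb. Alternatives were DESeq2 1.42.0, RLE factors, no filter, the replicate number as a block, RUV covariates, fits of only the groups compared, limma 3.58.1 on the deposited log2 CPM, and leaving out each library. Leaving out the 3 libraries that stand apart was added after the data were seen. The fits were tested on simulated data with 200 changed genes. For T-REX against DMSO, 20.5% to 30% of true log2 changes of 0.3 were called, and 78% to 89.5% of those of 0.6. For the change of the T-REX effect against DMSO from 3 to 12 h, these were 6% and 58%. A difference of this smaller size that was not called is therefore not shown to be absent. Figures were drawn with Python 3.11.15 and matplotlib 3.10.9.

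The 8 genes, the lists and the tests were chosen with earlier results of these data known. All 8 genes are named. In each list, at most 3 genes with the smallest adjusted p in a comparison of T-REX with a control are named, and for each of the 8 genes the 3 with the highest r, of which 1 is not reported here. Splicing and protein data were not analysed here.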

Additional observations from a re-analysis of the deposited data

Results flagged for a closer look

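In 96 groups of 4 libraries (8 genes in 12 groups), 1 library lay far from the other 3 on the log2 scale, by Dixon's ratio at the 95% level, in 10 cases. About 1 in 20 groups would pass by chance. In the light alone group at 6 h, replicate 3 was flagged for CCNE1 (12.7 CPM, the others 18.6 to 19.5), CCNE2 (51.3 CPM, the others 43.6 to 44.1) and CDKN1B (43.9 CPM, the others 31.6 to 33.04). It is 1 of the 3 libraries that stood apart over all genes. CCND2 was low in DMSO replicate 3 at 6 h (238 CPM, the others 286 to 289) and in probe alone replicate 4 at 12 h (229 CPM, the others 257 to 261). At 3 h, DMSO replicate 4 was low for CCND1 (7.49 CPM, the others 8.89 to 9.20) and DMSO replicate 3 for CCNE2 (43.8 CPM, the others 51.8 to 52.9). CDK4 was high in probe alone replicate 2 at 6 h (89.8 CPM, the others 81.7 to 82.9). CDKN1B was high in probe alone replicate 1 at 3 h (34.1 CPM, the others 28.9 to 29.8) and low in T-REX replicate 4 at 6 h (27 CPM, the others 30.9 to 31.6).

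The T-REX effect on CCND2 against DMSO differed between 3 and 6 h by 0.43 on the log2 scale (adjusted p = 0.0219), in the interaction test of edgeR. DMSO replicate 3 at 6 h, flagged above, enters this value, which was 0.37 (adjusted p = 0.155) without it.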

How the results depend on the processing

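No called value changed sign under any alternative. With the RUV factors as covariates, more tests were called: 8, 5 and 7 for T-REX against controls at 3, 6 and 12 h in place of 3, 0 and 4, then 3, 1 and 8 between controls in place of 0, 0 and 1, and 5 for the T-REX effect between times in place of 1. DESeq2 gave 1 for T-REX at 6 h and 2 between controls at 12 h. Fits of only the groups compared gave 2 for T-REX at 12 h, 2 between controls at 12 h and 0 for the T-REX effect between times. Without the 3 libraries that stand apart, 2 were called between controls at 12 h and 3 for the T-REX effect between times. The cause of these shifts was not tested.

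Leaving out 1 library gave 2 to 5 calls for T-REX at 3 h (5 without T-REX replicate 3), 0 to 1 at 6 h (1 without light alone replicate 4) and 2 to 6 at 12 h (2 without T-REX replicate 3). Between controls it gave 0 to 0 at 3 and 6 h and 1 to 2 at 12 h (2 without DMSO replicate 1, 3 or 4). It gave 10 to 14 for 6 h against 3 h, 14 to 17 for 12 h against 3 h, and 0 to 1 for the T-REX effect between times.

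Of 120 pairs of same-numbered libraries, 56 had deviations that correlated above 0.1 (r from -0.64 to 0.63, median 0.07). All 4 pairs did so in 3 of 30 pairs of groups (T-REX at 3 and 12 h, DMSO at 3 and 6 h, T-REX and probe alone at 6 h). In the others not all 4 did, which does not settle whether libraries of the same number were paired. With the replicate number as a block, 13 tests in place of 12 were called at 6 h against 3 h, with CCND2 under probe alone added, and the other counts, those of these 3 included, did not move. limma on the deposited log2 CPM was not run across time points, whose tables were normalized separately. Counting error at the lowest count limits CCND1 and CCND3 most.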

Other observations

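Other G1 regulators also changed with time, and those named here were chosen after their values were seen. From 3 to 12 h, RB1 rose in all 4 arms (log2 fold change 0.63 for T-REX, 0.54 for light alone, 0.52 for probe alone and 0.59 for DMSO, highest adjusted p = 6.56e-05 by edgeR). CDKN1A, the inhibitor p21, rose by 0.95, 0.67, 1.19 and 1.02 in the same order (highest adjusted p = 0.00331). CDKN1C, the inhibitor p57, rose by 1.31, 0.95, 0.81 and 1.28 (highest adjusted p = 0.00327). Of the 5 other CDK inhibitors measured, 3, 3, 4 and 4 were called higher at 12 h and 0 lower, where 38.8%, 36.6%, 47.9% and 33.1% of all genes were called in either direction.

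S phase genes under E2F control did not move one way. RRM2, a subunit of ribonucleotide reductase, fell by 0.60, 0.50, 0.46 and 0.46 from 3 to 12 h (highest adjusted p = 3.6e-05), and CDC6, which loads the replicative helicase, fell by 0.58, 0.49, 0.44 and 0.44 (highest adjusted p = 6.07e-05). PCNA, the sliding clamp of DNA polymerases, rose by 0.16, 0.23, 0.28 and 0.22 (highest adjusted p = 0.0485). Of the 15 genes, 1, 3, 6 and 3 rose and 5, 2, 3 and 3 fell, which is read against the same shares of all genes and not as particular to the list.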
